A study of Mus musculus with 8 samples.

Results

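The 9 transcription factors of the ETS family followed here were the endothelial factors Erg, Fli1, Ets1, Ets2 and Elk3, and the epithelial factors Elf3, Elf5, Ehf and Spdef. They were taken by name from the count table, where all 9 were found among 27179 genes, and the rule that lists them uses no measured value. The libraries were made from lungs of C57BL/6 mice carrying a rearrangement of Eml4 and Alk, called a translocation in the labels and induced by adenoviral delivery of Cas9 and guide RNAs. All mice, aged 18 to 22 weeks and 11 to 12 weeks after tumor induction, had received 4.5 nmol of QZ1, a PEG-coupled peptide probe that fluoresces once proteases cleave it, with 2 h between injection and dissection. From the viable CD45- and CD11b- fraction, cells were sorted by QZ1 signal, gated against EpCAM, and 4 libraries were made from the QZ1-hi population and 4 from the QZ1-lo population. Both populations therefore shared the genotype, the tumor, the probe and the depletion of leukocytes, and no library came from a mouse without tumor or probe. Neither population was 1 cell type, so each value is an average over the cells sorted.

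ETS proteins share a DNA-binding domain that recognises the core GGAA, and some family members are made mainly in particular cell types. ERG and FLI1 maintain endothelial identity by switching on genes for junction proteins and vascular receptors, and FLI1 and ETS1 are also known from blood cells. ELF3, ELF5 and EHF form an epithelial branch of the family, while SPDEF drives the differentiation of mucus-producing goblet cells. The comparison of QZ1-hi with QZ1-lo asks how these regulators differ between cells with high and low signal of the cleaved probe. By the paper's design the freed fluorescent part can tag cells nearby, so the signal marks protease activity on or close to a cell.

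In the mouse assembly GRCm38, 6 of the 9 genes lie in neighbouring pairs. Erg (chr16:95359169-95586593, minus strand) lies 115.5 kb from Ets2 (chr16:95702075-95721051, plus strand). Fli1 (chr9:32422204-32542861, minus strand) lies 93.4 kb from Ets1 (chr9:32636221-32757820, plus strand). Ehf (chr2:103263433-103303278, minus strand) lies 108.4 kb from Elf5 (chr2:103411688-103450989, plus strand). Elk3 (chr10:93247414-93311135), Elf3 (chr1:135253575-135258568) and Spdef (chr17:27714352-27728955) are on the minus strand of other chromosomes. Each pair of neighbours is listed with separate exons.

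Promoter windows of 250 bases before a transcription start were available from RefSeq (GRCm38.p6) for 6 of the 9 members, with 9 windows in all. The core GGAA, searched on both strands as GGAA or TTCC, was found in 8 of those 9 windows, with a median of 2 per window. Over 32851 promoters of the same length 93.45% held a core, with a median of 3, so the members' windows held it about as often as promoters in general. The longer string CAGGAA, searched on both strands and containing the core, was found in 4 of the 9 windows and in 25.71% of all promoters. Erg has 3 of these windows, with 0 cores at the start of the gene (chr16:95586594-95586843), 4 before one internal start (chr16:95530366-95530615) and 2 before another, so the single member window without a core is that of the Erg gene start. Windows are shown for Erg and Elf3, the member with the largest fold change in each direction, and for Flt1, the listed endothelial ETS target gene with the smallest called fold change. They are written 5′ to 3′ along the gene's strand, without annotated exons, and capitals mark each core. The Erg window shown (chr16:95459349-95459598, minus strand) lies within the gene, upstream of an internal start, and was taken because it is the only one of the 3 that holds CAGGAA. The Elf3 window (chr1:135258569-135258722, minus strand) and the Flt1 window (chr5:147726012-147726261, minus strand) hold 4 cores each.
Erg: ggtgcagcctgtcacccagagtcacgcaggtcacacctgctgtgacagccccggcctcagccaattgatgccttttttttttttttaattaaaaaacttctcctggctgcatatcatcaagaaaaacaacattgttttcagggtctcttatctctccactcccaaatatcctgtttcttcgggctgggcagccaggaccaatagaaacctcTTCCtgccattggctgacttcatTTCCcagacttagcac
Elf3: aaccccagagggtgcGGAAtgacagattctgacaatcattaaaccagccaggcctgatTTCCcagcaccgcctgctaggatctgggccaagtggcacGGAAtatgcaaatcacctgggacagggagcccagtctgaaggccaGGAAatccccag
Flt1: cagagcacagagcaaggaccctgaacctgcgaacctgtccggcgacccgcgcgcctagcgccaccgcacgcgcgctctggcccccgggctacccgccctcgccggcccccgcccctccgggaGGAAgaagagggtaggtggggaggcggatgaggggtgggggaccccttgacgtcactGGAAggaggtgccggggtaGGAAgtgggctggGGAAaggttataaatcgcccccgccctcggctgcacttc

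Total counts per library ranged from 18380918 to 26847938. Mitochondrial and ribosomal RNA genes took between 39.5% and 58.4% of counts in the QZ1-hi libraries and between 30.3% and 47.4% in the QZ1-lo libraries. Levels are given as CPM, the counts scaled to library size with TMM factors, and 3 counts, used here as the floor, were worth between 0.0894 and 0.179 CPM, a limit that covers counting error only. Sftpc, which marks alveolar type 2 cells of the lung, the labelled tissue, was found at 1913 to 5617 CPM over all 8 libraries. Despite the sort, Ptprc, which encodes CD45, was found at 71.4 to 222 CPM in QZ1-hi and 93.4 to 161 CPM in QZ1-lo. The 10 endothelial markers summed to 1260 to 2762 CPM in QZ1-hi and 146 to 419 CPM in QZ1-lo, with each of the 10 called higher in QZ1-hi. The 9 epithelial markers summed to 571 to 905 CPM in QZ1-hi and 1661 to 2266 CPM in QZ1-lo, and 8 of them were called lower. The 10 mesenchymal markers summed to 1597 to 3034 CPM in QZ1-hi and 49.6 to 373 CPM in QZ1-lo, and 6 of them were called higher. In bulk samples of this kind, fewer cells of a type and less RNA per cell cannot be told apart, and the part of these cell type differences in the members' fold changes was examined only by the ratios to markers given below.

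Of the 9 members, 8 passed the filter on low counts, and Spdef did not. Erg, Fli1, Ets1 and Elk3 were called higher in QZ1-hi, against 9.88% of the 15583 genes tested (edgeR quasi-likelihood test, Benjamini-Hochberg adjusted p under 0.05). Elf3 and Ehf were called lower, against 8.21% of genes tested. Ets2 and Elf5 were not called in either direction. The same 4 and 2 members were those whose libraries did not overlap between populations, which held for 11.9% of genes tested in the higher direction and 10.7% in the lower direction. Over every gene tested the log2 fold change had a median of 0.02, with 1540 genes called higher and 1280 lower. With library size as the only scaling, which lowered that median to -0.44, 882 genes were called higher and 2509 lower, and Fli1, Ets1 and Elk3 were no longer called (edgeR adjusted p = 0.104 to 0.157).

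Erg, the ETS factor most closely tied to endothelial identity, showed the largest difference. It was found at 36.5, 30.8, 56.3 and 37.4 CPM in QZ1-hi libraries 1 to 4. In QZ1-lo libraries 1 to 4 it was at 1.28, 5.78, 8.54 and 0.941 CPM. Every QZ1-hi library stood above every QZ1-lo library, and the QZ1-lo libraries were widely spread, with libraries 2 and 3 above libraries 1 and 4. Those QZ1-lo values rest on 43, 142, 236 and 23 counts, all above the floor. The log2 fold change was 3.29 ± 0.58 (SE), a 9.74-fold difference (edgeR adjusted p = 0.00264). It was 3.93 without QZ1-lo library 3 and 4.05 with limma, and was called in both. QZ1-lo library 3, with the most Erg of that population, also held the highest summed level of the endothelial markers there, 419 CPM, where libraries 1, 2 and 4 had 146, 191 and 149 CPM. The mesenchymal markers summed to 350 and 373 CPM in QZ1-lo libraries 2 and 3 and to 150 and 49.6 CPM in libraries 1 and 4. The part of either cell type in the spread of Erg was not tested.

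Fli1, the relative of Erg that also acts in megakaryocytes and other blood cells, differed less. Its levels were 21.3, 16.6, 40.1 and 24.9 CPM in QZ1-hi libraries 1 to 4 and 10.7, 8.83, 12.99 and 15.6 CPM in QZ1-lo libraries 1 to 4. The groups did not overlap, but the lowest QZ1-hi library, at 16.6 CPM, lay just above the highest QZ1-lo library, at 15.6 CPM. On the log2 scale the fold change was 1.10 ± 0.27 (adjusted p = 0.0163). Without QZ1-hi library 3, the highest of its group, the log2 fold change was 0.76 with an adjusted p of 0.0501 (edgeR), and over all 16 alternatives the adjusted p ranged from 0.00175 to 0.157. QZ1-lo library 4, with the most Fli1 in its population, also had the highest summed leukocyte markers there, 4506 CPM, while libraries 1 to 3 of that population lay between 2292 and 3067 CPM. In QZ1-hi the same order was not seen, since library 4, with 6763 CPM of leukocyte markers, had 24.9 CPM of Fli1, and library 3, with 3368 CPM, had the most Fli1. The 4 platelet markers summed to 17.2 to 35.2 CPM in QZ1-hi and 3.79 to 8.87 CPM in QZ1-lo, and 3 of 4 were called higher in QZ1-hi. Most of the leukocyte sum came from Lyz2 alone, at 1895 to 3761 CPM in QZ1-lo and 2696 to 5763 CPM in QZ1-hi. That sum therefore follows Lyz2 more than leukocytes as a whole. The part of leukocytes and platelets in the Fli1 values was not tested.

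Ets1, the founding member of the family, active in new vessels and in lymphocytes, was found at 105, 67.1, 123 and 62.9 CPM in QZ1-hi libraries 1 to 4. Its QZ1-lo levels were 44.5, 32.4, 53.1 and 29.2 CPM. In both populations libraries 1 and 3 were the high ones and libraries 2 and 4 the low ones. Library numbers follow the order of deposit and were not used to pair libraries. All QZ1-hi libraries exceeded all QZ1-lo libraries, with a log2 fold change of 1.17 ± 0.25 (edgeR adjusted p = 0.00752).

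Elk3 encodes a ternary complex factor that binds DNA together with serum response factor and is known from vessel growth. It was at 61.0, 41.8, 56.4 and 40.9 CPM in QZ1-hi libraries 1 to 4 and at 27.04, 23.4, 25.2 and 25.2 CPM in QZ1-lo libraries 1 to 4. The QZ1-lo libraries were close together and all below the QZ1-hi libraries. Elk3 had a log2 fold change of 0.99 ± 0.15 (edgeR adjusted p = 0.00121). Exons of Elk3 overlap those of Cdk17 on the opposite strand, with 5.90% of its stretches of 50 bases shared, and the strand setting of the counting is not given in the sources used here. Cdk17 itself had a log2 fold change of -0.09 ± 0.13 (edgeR adjusted p = 0.733).

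Ets2, a widely expressed factor that RAS-MAPK signalling phosphorylates, was the endothelial list's exception. It was at 125, 108, 131 and 122 CPM in QZ1-hi libraries 1 to 4 and at 140, 142, 145 and 120 CPM in QZ1-lo libraries 1 to 4. The groups overlapped through QZ1-lo library 4. Its log2 fold change was -0.17 ± 0.11 (edgeR adjusted p = 0.372), which did not pass the threshold.

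Elf3, an epithelial factor induced in inflammation, was the member lowest in QZ1-hi relative to QZ1-lo. Its levels were 31.2, 22.6, 32.6 and 16.3 CPM in QZ1-hi libraries 1 to 4 and 50.7, 56.8, 81.8 and 46.2 CPM in QZ1-lo libraries 1 to 4. No QZ1-hi library reached the lowest QZ1-lo library. This gave a log2 fold change of -1.20 ± 0.24, with the QZ1-lo level 2.29-fold higher (edgeR adjusted p = 0.00516). Elf3 exons overlap Gm26642 on the opposite strand, with 5.29% of stretches of 50 bases shared.

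Ehf, an epithelial-specific factor of the same branch, was at 48.1, 38.3, 28.6 and 30.6 CPM in QZ1-hi libraries 1 to 4. In QZ1-lo libraries 1 to 4 it was at 66.5, 69.6, 68.6 and 54.0 CPM. The groups did not overlap and the QZ1-lo libraries were the higher ones, with a log2 fold change of -0.83 ± 0.17 (edgeR adjusted p = 0.00630).

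Elf5, known from distal lung epithelial progenitors and the alveoli of the mammary gland, did not move with Elf3 and Ehf. Its levels were 9.92, 10.9, 11.0 and 7.63 CPM in QZ1-hi libraries 1 to 4 and 7.45, 8.26, 6.04 and 5.57 CPM in QZ1-lo libraries 1 to 4. Only QZ1-hi library 4 fell below the highest QZ1-lo library. The log2 fold change was 0.53 ± 0.21 (edgeR adjusted p = 0.121), the opposite sign to its branch but not past the threshold. Of 7 alveolar type 2 markers, 2 were called higher in QZ1-hi and none lower, and their median log2 fold change was 0.39. Of 5 alveolar type 1 markers, 4 were called lower, and all 4 club cell and all 4 ciliated cell markers were called lower. The part of such shifts among epithelial cell types in the values of Elf5, Elf3 and Ehf was not tested.

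Spdef was close to the detection limit. It had 2, 3, 4 and 0 counts in QZ1-hi libraries 1 to 4 and 42, 3, 0 and 16 counts in QZ1-lo libraries 1 to 4. Only QZ1-hi library 3 and QZ1-lo libraries 1 and 4 exceeded 3 counts, and QZ1-lo libraries 1 and 4 reached 1.25 and 0.655 CPM. Within QZ1-lo the gene thus ranged from no count to 42 counts, although these libraries had similar totals. It was tested only without the filter on low counts, where edgeR gave a log2 fold change of -2.09 with an adjusted p of 0.412, and with DESeq2, which gave -2.14 and 0.363. Neither passed the threshold.

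**Figure D1:**
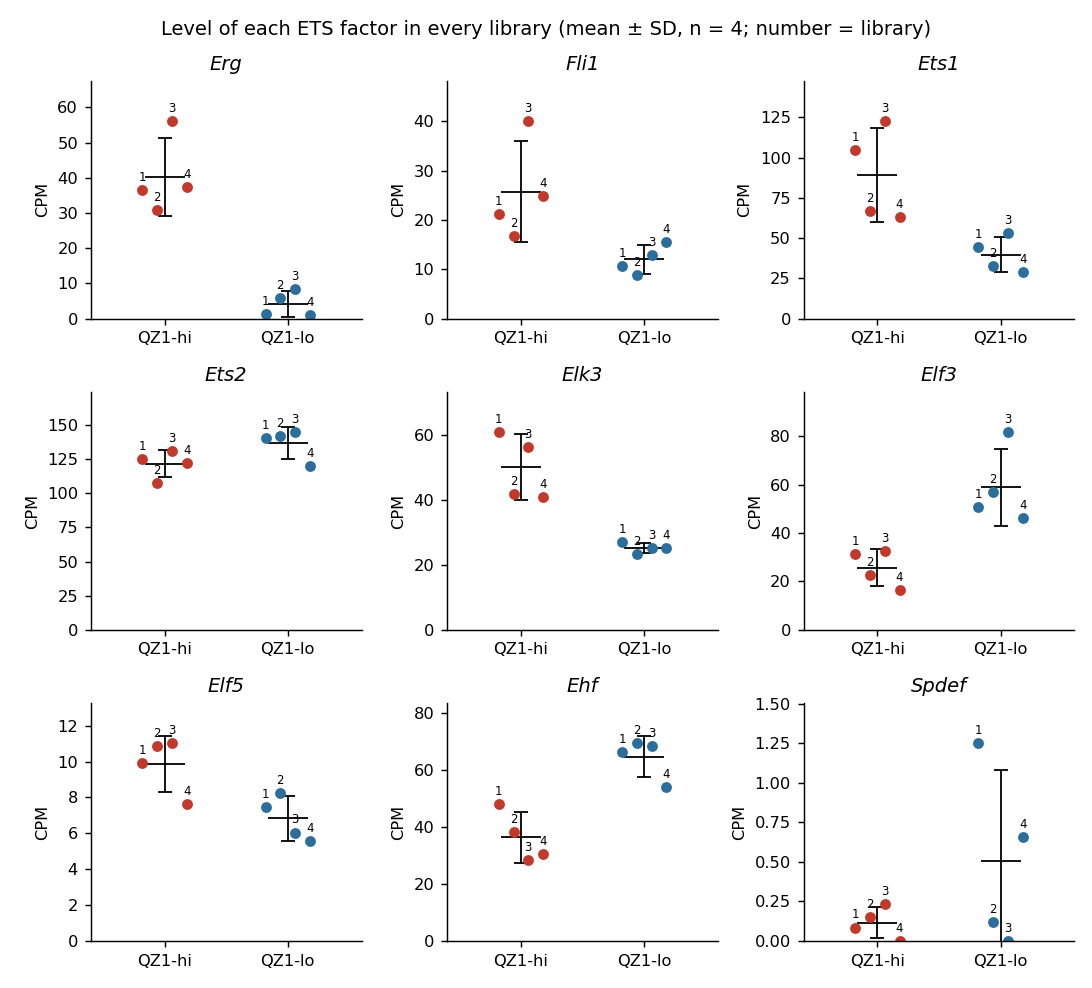
Level of each of the 9 members in CPM on linear axes from 0, with 1 point per library, its number above it, and the mean ± SD of 4 libraries per population. Points of QZ1-hi and QZ1-lo do not overlap for Erg, Fli1, Ets1, Elk3, Elf3 and Ehf, overlap for Ets2 and Elf5, and lie near 0 for Spdef, whose lower error bar in QZ1-lo is clipped at 0.

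Comparing members with each other within a library removes the scaling between libraries. For each pair within a branch, the log2 ratio was compared between populations by a two-sided exact permutation test over the 70 assignments, whose smallest p is 0.0286, and p-values were adjusted over 13 pairs. Of the 13 pairs, 9 reached that smallest p, giving an adjusted p of 0.0413. The test takes all libraries as independent, which the labels do not settle. The Erg to Fli1 ratio was 0.68 ± 0.18 (SD, n = 4) on the log2 scale in QZ1-hi and -2.06 ± 1.72 (n = 4) in QZ1-lo. Erg was thus above Fli1 in CPM in every QZ1-hi library and below it in every QZ1-lo library, a difference of 2.74 on the log2 scale (exact permutation adjusted p = 0.0413). With 1 library left out that difference lay between 2.10, without QZ1-lo library 4, and 3.22, without QZ1-lo library 3. The ratios of Erg to Ets1, Elk3 and Ets2 differed by 2.64, 2.82 and 3.96, with no overlap between populations. Ets2 differed from each of the other endothelial members, with Fli1 to Ets2 and Ets1 to Ets2 ratios higher in QZ1-hi by 1.22 and 1.32. Differences among Fli1, Ets1 and Elk3 were small and did not pass the test. They were -0.10 for Fli1 against Ets1 (adjusted p = 0.83), 0.08 for Fli1 against Elk3 (0.805) and 0.18 for Ets1 against Elk3 (0.473), all by exact permutation, which does not show that the fold changes were the same. Erg and Ets2 were thus each told apart from every other endothelial member, in opposite directions.

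In the epithelial branch, Elf5 parted from both relatives. The Elf3 to Elf5 ratio was 1.34 ± 0.31 (SD, n = 4) on the log2 scale in QZ1-hi and 3.08 ± 0.46 (n = 4) in QZ1-lo. The Elf5 to Ehf ratio was 1.38 higher in QZ1-hi on the log2 scale. Both differences had an exact permutation adjusted p of 0.0413. The Elf3 to Ehf ratio differed by -0.36 and did not pass (exact permutation adjusted p = 0.334).

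Members were then set against the markers of the cell type they are known from. The log2 CPM of each endothelial member minus the mean log2 CPM of 10 endothelial markers was compared between populations, and each epithelial member was set against 9 epithelial markers in the same way. Relative to endothelial markers, Erg was at -1.49 ± 0.42 (SD, n = 4) in QZ1-hi and -2.07 ± 0.87 (n = 4) in QZ1-lo. That difference of 0.58 did not pass the exact permutation test (adjusted p = 0.327 over 8 members), and the libraries overlapped. Fli1, Ets1 and Elk3 differed less between populations than the markers did, with QZ1-hi minus QZ1-lo differences in relative level of -2.16, -2.06 and -2.24 on the log2 scale. The difference for Ets2 was -3.38. Each of these 4 differences had no overlap between populations and an adjusted p of 0.0381, which the smallest exact p gives here.

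Relative to epithelial markers, Elf3 was at -0.99 ± 0.45 (SD, n = 4) in QZ1-hi and -1.17 ± 0.27 (n = 4) in QZ1-lo, a difference of 0.18 that did not pass (exact permutation adjusted p = 0.600). Ehf was 0.54 higher relative to the markers in QZ1-hi, and Elf5 was 1.92 higher. Both had an exact permutation adjusted p of 0.0381. Ehf, with a log2 fold change of -0.83, thus fell less than the mean of these 9 epithelial markers. Rab25 among them fell less than Ehf, at -0.76. Elf3 differed from the marker mean by less than the spread between libraries. These differences hold for that list, whose median log2 fold change was -1.30. The 7 alveolar type 2 markers had a median of 0.39, and no member was set against them.

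**Figure D2:**
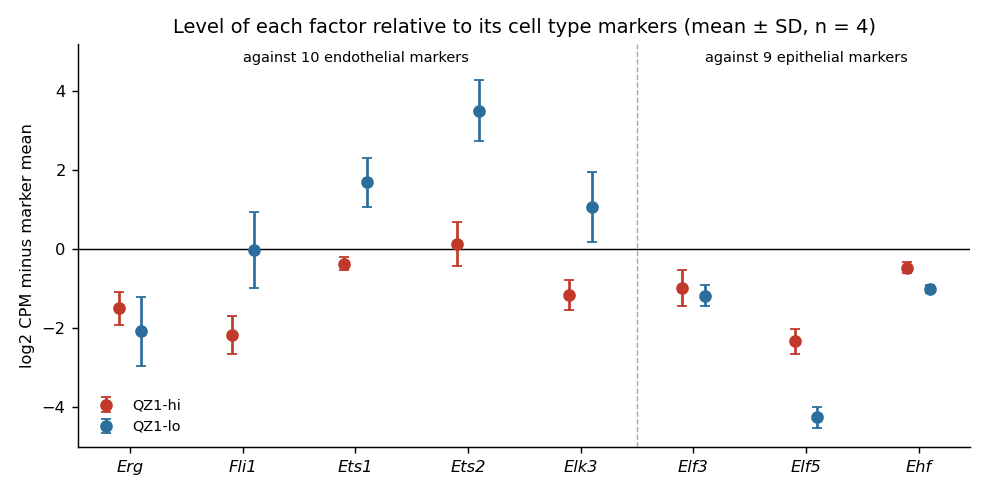
Mean log2 CPM of each tested member minus the mean log2 CPM of its cell type markers, with error bars of 1 SD over 4 libraries, for QZ1-hi in red and QZ1-lo in blue. Libraries of the populations overlapped for Erg and Elf3 and did not for the other 6 members. The gap between the means was 0.58 for Erg, 0.18 for Elf3 and 0.54 for Ehf. Ets2 was at 0.14 in QZ1-hi and 3.52 in QZ1-lo, and Elf5 at -2.33 and -4.25.

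Levels of different genes were compared only per exon length, as CPM per kb of exon, and are given as a description. In QZ1-hi the order began with Ets2 at 21.03 ± 1.72 (SD, n = 4), well clear of the next member. Erg at 11.6 ± 3.20, Elf3 at 11.6 ± 3.46, Elk3 at 11.0 ± 2.24 and Ets1 at 10.5 ± 3.44 followed, with overlapping libraries between neighbours in that order. Fli1 at 7.38 ± 2.92 and Ehf at 6.53 ± 1.59 came next and overlapped each other, with Fli1 also overlapping Ets1. Every library of Ehf lay above those of Elf5, at 1.68 ± 0.27, and last was Spdef at 0.0504 ± 0.0425.

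In QZ1-lo the order on the same scale was led by Elf3 at 26.5 ± 7.17 (SD, n = 4) and Ets2 at 23.7 ± 2.00, whose libraries overlapped. Ehf followed at 11.6 ± 1.30, clear of both neighbours. Elk3 at 5.54 ± 0.33, Ets1 at 4.69 ± 1.31 and Fli1 at 3.45 ± 0.84 came next, and Ets1 overlapped both Elk3 and Fli1. The libraries of Fli1 lay above all those of Erg. Erg at 1.19 ± 1.06 overlapped Elf5 at 1.16 ± 0.21, and Spdef was last at 0.220 ± 0.248. With the longest transcript as the length, Ets1 moved from place 5 to place 2 in QZ1-hi, at 17.6 CPM per kb, Ets2 passed Elf3 in QZ1-lo, and other neighbours with overlapping libraries changed places too.

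Of the summed CPM per kb of the 5 endothelial members, Erg held between 16.5% and 20.99% in the QZ1-hi libraries and between 0.789% and 5.72% in the QZ1-lo libraries. Ets2 held between 29.3% and 38.1% in QZ1-hi and between 58.3% and 65.1% in QZ1-lo. Over the mixed cells of each population, Ets2 thus held most of this sum in QZ1-lo, while the shares were more even in QZ1-hi. These shares are not those of endothelial cells alone, since both populations mix cell types and Ets2 is widely expressed. Of the epithelial set, Elf3 held between 52.0% and 67.4% in QZ1-hi and between 62.4% and 73.5% in QZ1-lo, and Elf5 between 6.90% and 9.74% and between 2.05% and 3.55%.

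**Figure D3:**
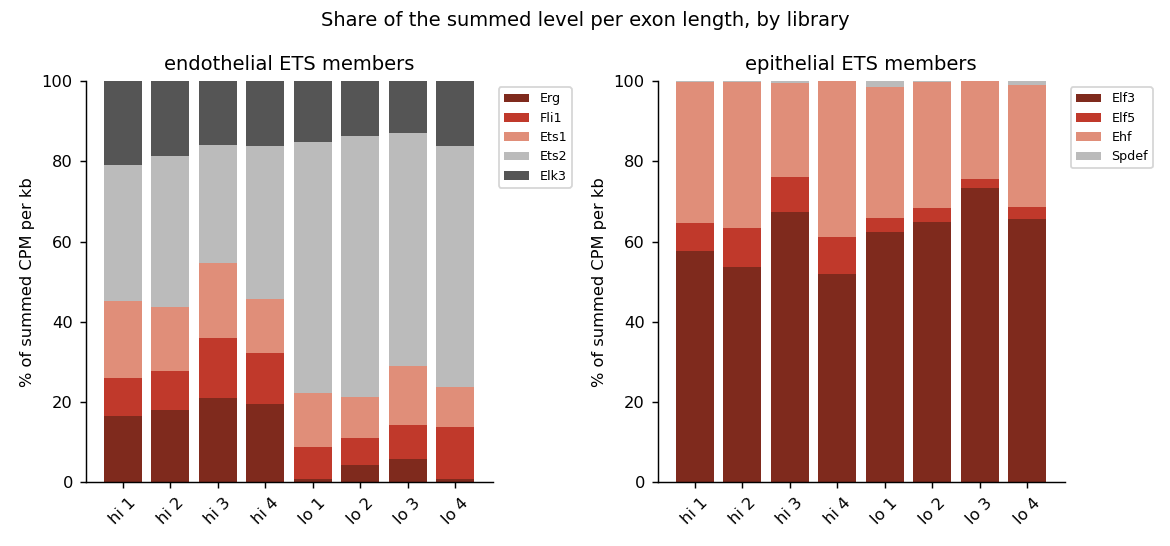
Share in percent of the summed CPM per kb of exon held by each endothelial member (left) and each epithelial member (right), with 1 stacked bar per library. The Ets2 share is larger in all QZ1-lo libraries than in any QZ1-hi library, and the Erg share is smaller.

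The rest of the ETS family gave a comparison. Of 17 other ETS genes, 15 were tested, and edgeR called none of them in either direction. At an unadjusted p under 0.05 edgeR found 0, DESeq2 1 and limma 1, and neither of the other tools called any after adjustment. Their median log2 fold change was 0.10, from -0.34 for Etv3 to 1.07 ± 0.51 for Etv1, and adjusted p-values ranged from 0.195 to 0.961. Their summed level was between 382 and 426 CPM in QZ1-hi and between 397 and 413 CPM in QZ1-lo. Spi1, the myeloid ETS factor PU.1, averaged 43.5 CPM with an SD of 17.4 over 4 QZ1-hi libraries and 40.6 CPM with an SD of 6.75 over 4 QZ1-lo libraries, with a log2 fold change of 0.10 ± 0.24 (edgeR adjusted p = 0.843). Of the 11 leukocyte markers tested, edgeR called none, with 0 at an unadjusted p under 0.05, where DESeq2 found 0 and limma 1, and their median log2 fold change was -0.15.

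**Figure D4:**
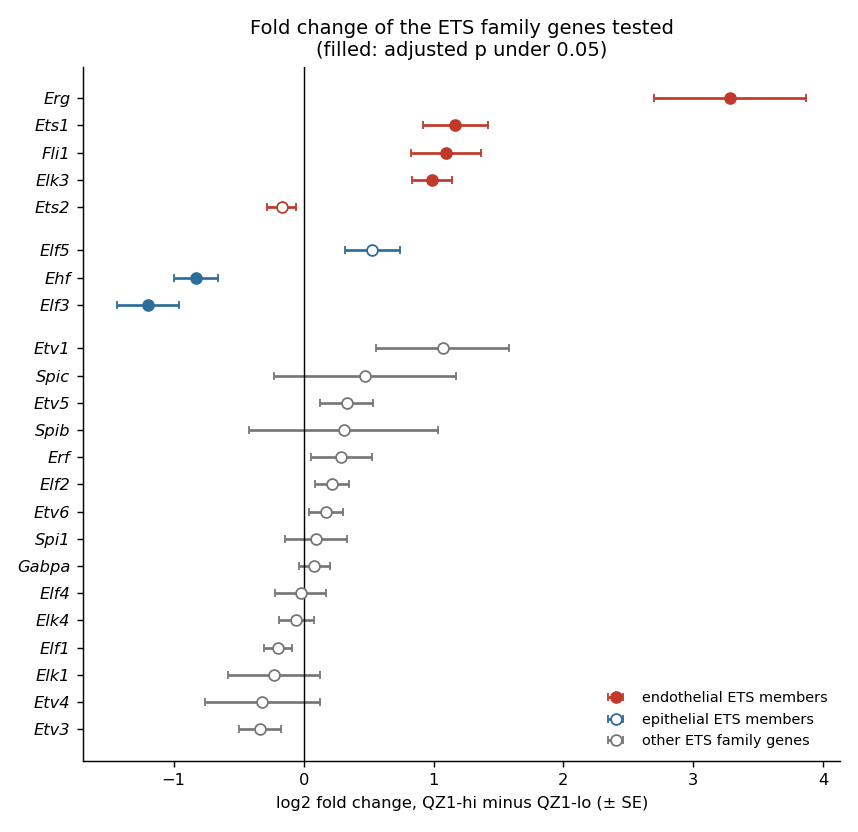
The log2 fold change of QZ1-hi minus QZ1-lo with its SE for the 8 members and 15 other ETS family genes tested, with filled points for adjusted p under 0.05. Erg lies far to the right at 3.29, Elf3 and Ehf lie to the left, and the grey points of the other family genes are all open.

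Genes that ETS factors are known to switch on in endothelium were counted from a list of 15. All 15 were called higher in QZ1-hi, with no overlap between populations. Their median log2 fold change was 3.29, near those of Erg (3.29) and of the 10 endothelial markers (3.29). The 10 mesenchymal markers, at a median of 3.11, and the 4 lymphatic markers, at 3.62, were in the same range. Erg was not set against either of those lists. The listed targets are themselves expressed mainly in endothelium, so their count and that of the markers are not separate observations. The paper had already reported several of them, among them Cdh5, Eng, Vwf, Tek and Flt1, as overexpressed in QZ1-hi from these libraries. Their count is therefore no independent finding. Among the 15, the largest fold change was that of Robo4, an endothelial guidance receptor, at 4.00 ± 0.64 (edgeR adjusted p = 0.00141). The smallest was that of Flt1, a VEGF receptor, at 1.81 ± 0.16 (edgeR adjusted p = 0.000144). Promoter windows were available for 11 of these 15 genes, 13 windows in all, of which 12 held the GGAA core and 6 held CAGGAA. Of all promoters, 93.45% held the core and 25.71% held CAGGAA. The median was 3 cores per window in both, so the targets held the core about as often as promoters in general. Of 12 transcription factors that work beside ETS factors in endothelium, 10 were called higher, with a median of 2.89. Klf2, induced by blood flow, had the smallest called fold change, 1.73 ± 0.22. Foxc2, a factor of lymphatic vessels, had the largest, but with 74 counts in QZ1-hi and 2 in QZ1-lo, a ratio of 52.3 with a 95% interval of 14.0 to 440.0 (Clopper-Pearson, counting error only). Foxo1, which many cell types express, had a log2 fold change of 0.00 ± 0.13 (edgeR adjusted p = 0.996).

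Of 10 transcription factors that work beside ETS factors in lung epithelium, 7 were called lower in QZ1-hi and none higher, with a median log2 fold change of -0.94. The largest difference was that of Sox2, a factor of the conducting airways, at -2.06 ± 0.28, and the smallest called one that of Grhl2, a regulator of epithelial junctions, at -0.84 ± 0.18 (edgeR adjusted p = 0.000620 and 0.00808). Of 7 genes of the goblet programme driven by SPDEF, 6 were tested and 3 were called lower, with a median of -1.45. Clca1, a secreted goblet cell product, had the largest, -3.85 ± 1.17, although its libraries overlapped (edgeR adjusted p = 0.0428), and it was not called by DESeq2 or limma. Muc5b, the main airway mucin of the resting lung, had the smallest, -1.25 ± 0.23, with a mean of 137 CPM (SD 41.9, n = 4) among QZ1-lo libraries and 57.3 CPM (SD 13.2, n = 4) among QZ1-hi libraries. Spdef itself exceeded 3 counts in only 3 of the 8 libraries.

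**Figure D5:**
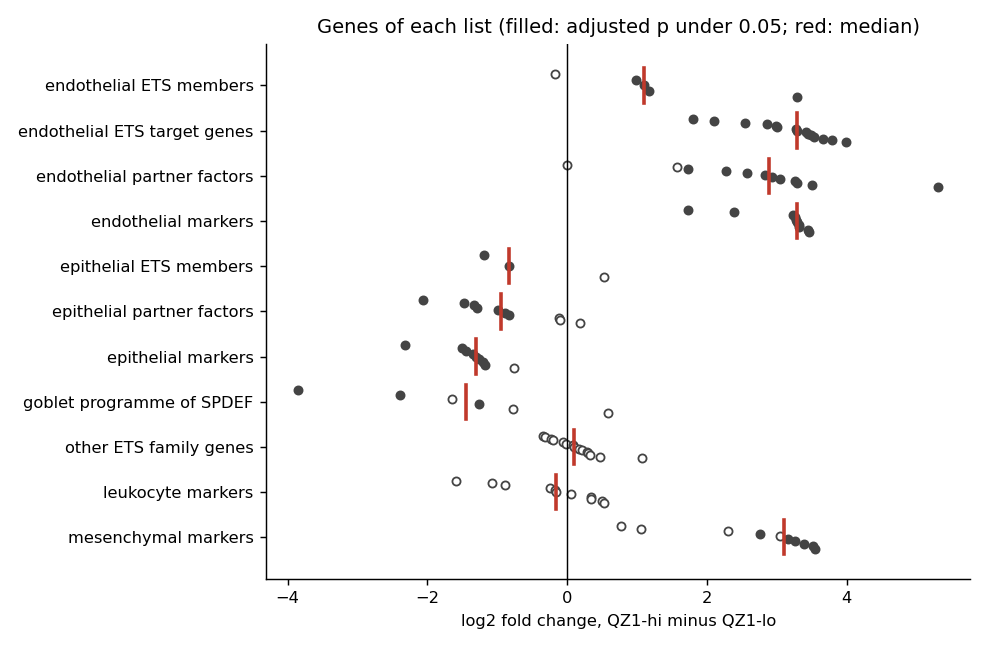
The log2 fold change of QZ1-hi minus QZ1-lo for each tested gene of 11 lists, with filled points for adjusted p under 0.05 and a red bar at each list's median. Endothelial target genes, partners and markers, and the mesenchymal markers, lie mostly between 2 and 4, where of the ETS members only Erg is found. The other ETS genes and leukocyte markers are open points on both sides of 0.

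The genes whose pattern was most like that of Erg were taken as the 5 tested genes with the smallest root mean square difference of mean-centred log2 CPM over the 8 libraries. They were Tspan7, a tetraspanin, at 0.31, Gm4788 at 0.34, Gata2, an endothelial and blood factor, at 0.35, Slit3, a ligand of ROBO receptors, at 0.36, and Serpina3n, a serine protease inhibitor, at 0.36. Their log2 fold changes lay between 3.29 for Gata2 and 3.59 for Serpina3n. Fli1 was 1464th in that order, at 1.73, and Ets1 1100th, at 1.59. For Elf3 the 5 genes were Tgtp1, an interferon-induced GTPase, at 0.09, Bicdl2 at 0.19, Asns, the asparagine synthetase, at 0.19, Neurl3 at 0.21 and Entpd3, an ectonucleotidase, at 0.22. Tgtp1 has a near-identical neighbour, Tgtp2, and its counts are uncertain for that reason. Ehf was 228th in likeness to Elf3, at 0.39, and Elf5 was 10024th, at 0.94. These measures share the 8 libraries and their scaling and carry no test. The values were centred but not scaled, so each place depends on the size of the fold change as well as the pattern. Likeness in fold change is therefore part of the measure and not a result.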

How the data were processed

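RNA of 8 libraries of sorted lung cells was measured by bulk RNA-seq, 4 from QZ1-hi and 4 from QZ1-lo cells. Read counts of 27179 genes, under Entrez identifiers, were deposited without normalization; the authors had obtained them with Rsubread from stranded total RNA libraries. The submitters' processing notes name mm10 and DESeq2. The aligner and the strand setting of the counting are not given in the sources used here.

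A symbol was found for 25275 identifiers, including all 142 listed genes. The model across genes was made in edgeR 4.0.16 under R 4.3.3 (TMM scaling, filterByExpr with a minimum count of 10 and total of 15, quasi-likelihood test, Benjamini-Hochberg threshold 0.05) over 15583 genes. Log2 CPM used a prior count of 1. Ratios were tested by exact permutation of the libraries (two-sided, 70 assignments), with every library taken as independent. Because Spdef failed the filter, 13 of the 16 planned pairs were tested. Gene lengths and coordinates came from GENCODE M21 (GRCm38, the assembly of mm10). Nothing in the labels names the mouse behind each library beyond calling them biological replicates.

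The members and lists were chosen with earlier results of these data known. All members are named with values in every library; other lists are given by counts and median, naming the largest and smallest called fold change and any gene a result turns on; and the 5 genes most like Erg and Elf3 are named. Etv3, Etv1, Spi1, Foxo1, Sftpc, Ptprc and Cdk17 were named after their values were seen. On simulated counts for the 15583 genes, edgeR called 34 of 100 genes changed by 1 and 73 of 100 changed by 2 on the log2 scale. It also called 5 of 15383 unchanged genes. Far more genes differed in the data, with 1540 called higher and 1280 lower, so these rates do not give the power of the comparison here. Alternatives were DESeq2 1.42.0, limma 3.58.1 (voom with sample weights), DESeq2 size factors, library size only, no filter, robust shrinkage, a minimum of 10 counts per library throughout, no mitochondrial and ribosomal RNA genes, each library left out, prior counts of 0.25 and 4, summed marker CPM, and the longest transcript as length.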

Additional observations from a re-analysis of the deposited data

How the results depend on the processing

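Of 460 values recomputed under the alternatives, none reversed a direction past its threshold. Erg, Elf3 and Ehf kept their calls in all 16 fits, with log2 fold changes of 2.87 to 4.05, -1.60 to -0.99 and -1.26 to -0.73, and Ets2 and Elf5 were called in none. Scaling by library size only shifted the median over all genes from 0.02 to -0.44 on the log2 scale. It gave 882 genes called higher and 2509 lower, against 1540 and 1280 with TMM, so 26.01% of calls were higher. Under it Fli1 was at 0.64, Ets1 at 0.74 and Elk3 at 0.57, none called, leaving 1 member called higher. Relative to the median of all genes these 3 values were 1.08, 1.18 and 1.01, against 1.07, 1.14 and 0.97 with TMM. With each library left out, the log2 fold change of Fli1 ranged from 0.76 to 1.25, and its call was lost without QZ1-hi library 3. Left-out libraries turned the sign of 3 differences that had not passed a test (Fli1 against Ets1, Fli1 against Elk3, and Elf3 against its markers). All pair differences and ratios to markers stayed on their side of the threshold with the other prior counts and with summed marker CPM. With 4 libraries a group, the exact tests cannot go below 0.0286. These tests and the fits across genes treated all libraries as independent. If QZ1-hi and QZ1-lo libraries shared mice, the p-values would not hold as given, and this was not tested. No paired analysis was possible because the library numbers only follow the order of deposit and no label or method says which QZ1-hi and QZ1-lo libraries, if any, share a mouse.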

Other observations

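Lymphatic endothelium was measured by 4 markers, of which 3 were called higher in QZ1-hi, with a median log2 fold change of 3.62. Prox1 was the marker not called, at 1.76 ± 0.66 with overlapping libraries (edgeR adjusted p = 0.0946). The 4 lymphatic markers had the following sums. Over libraries these ran from 68.1 to 175 CPM in QZ1-hi and from 4.26 to 20.0 CPM in QZ1-lo. Of the 10 mesenchymal markers 6 were called higher, with a median of 3.11. Cspg4, Higd1b, Tcf21 and Acta2 were not called (edgeR adjusted p = 0.0783 to 0.133). None of the 3 red cell markers was called by edgeR, and their sums ranged from 61.9 to 472 CPM in QZ1-hi and from 131 to 1464 CPM in QZ1-lo.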
